A study of Rattus norvegicus with 16 samples.

Results

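The genes described here are 40 genes of the cell division cycle, chosen by name: 16 that serve DNA replication and its preparation, and 24 that serve mitosis. Of these, 37 had at least 1 probe on the array, with 15 replication and 22 mitosis genes among them. They are 37 of the 26785 genes the probes named. No probe carried the name Mcm5, Bub1b or Top2a. The genes were followed in immune cells of rats with autoimmune glomerulonephritis, an immune attack on the filtering units of the kidney. All animals were female, 15 weeks old and immunised with an autoantigen that brings on the disease, and blood and kidneys were taken on days 30 to 35; no group came from unimmunised rats. The rats were of the WKY (Wistar Kyoto) or LEW (Lewis) strain. Immune cells from blood, or released from digested glomeruli, were sorted with magnetic beads in 3 steps into 8 groups of 2 arrays each. From WKY blood there were CD8+ RT1B+ cells, CD8+ RT1Blow cells and pan T cells; from LEW blood there were CD8+ RT1B+ and CD8+ RT1Blow cells; from WKY glomeruli there were CD8+ RT1B+ cells, CD8+ RT1Blow cells and cells labelled as macrophages. RT1B is a rat MHC class II molecule, which presents peptides to T cells. Nothing in the labels tells whether paired arrays stem from different animals, so every test below sets a difference against array-to-array spread, possibly of technical origin alone. For each gene that spread was pooled over all 8 groups, so arrays outside a comparison also shape its SE and p-value.

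Cells prepare for division in G1, when E2F transcription factors such as E2f1 switch on the genes for DNA synthesis. The Mcm proteins form the helicase that opens DNA, Pcna clamps the polymerase to it, and Rrm1, Rrm2, Tyms and Tk1 supply nucleotides. Later, Cdk1 with cyclins A and B drives entry into mitosis, when aurora and polo-like kinases, kinesin motors and the spindle checkpoint arrange and divide the chromosomes. Resting blood T cells hold most of these genes at low levels, and activated lymphocytes switch them on when they proliferate.

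The replication and the mitosis genes are described apart throughout, and 6 promoters are shown here, 3 of each set, because the motifs they hold differ. Replication genes are classically bound by E2F, and many mitosis genes carry a CHR element, together with CCAAT boxes bound by NF-Y. RefSeq promoter sequences of the rat genome build GRCr8, from 250 bases before to 50 after the annotated start, were found for 31 of the 40 genes (11 of 16 replication and 20 of 24 mitosis genes). An E2F motif (TTTCCCGC, TTTCGCGC, TTTGCCGC or TTTGGCGC, on either strand) was found in 6 of 11 replication promoters (54.5%: Mcm2, Mcm3, Mcm5, Mcm6, Mcm7 and Tyms) and in 1 of 20 mitosis promoters (5%: Cdk1), against 2.14% of all 33469 promoters. A CHR motif (TTTGAA or TTCGAA) was found in 3 of 11 replication promoters (27.3%) and 13 of 20 mitosis promoters (65%), against 19.7% of all. CCAAT was found in 7 of 11 (63.6%) and 15 of 20 (75%), against 37.5% of all. These matches are descriptions of letters and not measured binding sites. Each sequence printed is the 150 bases directly before the start, 5′ to 3′ on the gene's strand, and capitals mark the motifs: the E2F, CHR and CCAAT letters above or, where the motif lies on the other strand, their reverse complement (ATTGG for CCAAT, GCGCGAAA for TTTCGCGC, which overlaps the forward match in Mcm2 and Mcm6). The 3 replication promoters are those of Mcm2 (chr4:122918095-122918244, minus strand), Mcm6 (chr13:42404353-42404502, minus strand) and Tyms (chr9:120776084-120776233, minus strand). The 3 mitosis promoters are those of Cdk1 (chr20:19265143-19265292, plus strand), which holds both kinds of motif, Ccnb2 (chr8:79981659-79981808, minus strand), with 3 CCAAT boxes before 1 CHR element in the printed bases, and Cdc20 (chr5:137255800-137255949, minus strand). A further CHR motif of Ccnb2, at -214 to -209 from the start, lies outside the printed bases.
Mcm2: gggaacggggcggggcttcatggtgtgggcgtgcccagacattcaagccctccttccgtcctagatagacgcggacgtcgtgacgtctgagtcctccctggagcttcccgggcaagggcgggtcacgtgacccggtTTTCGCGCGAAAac
Mcm6: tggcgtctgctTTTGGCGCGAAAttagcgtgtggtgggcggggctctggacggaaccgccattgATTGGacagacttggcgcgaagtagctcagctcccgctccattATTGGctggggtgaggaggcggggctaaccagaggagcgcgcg
Tyms: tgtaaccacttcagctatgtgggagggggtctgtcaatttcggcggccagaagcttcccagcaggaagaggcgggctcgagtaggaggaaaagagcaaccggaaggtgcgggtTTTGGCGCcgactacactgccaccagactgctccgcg
Cdk1: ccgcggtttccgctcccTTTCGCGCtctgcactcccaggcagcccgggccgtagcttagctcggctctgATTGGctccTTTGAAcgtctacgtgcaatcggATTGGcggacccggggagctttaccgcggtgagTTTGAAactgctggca
Ccnb2: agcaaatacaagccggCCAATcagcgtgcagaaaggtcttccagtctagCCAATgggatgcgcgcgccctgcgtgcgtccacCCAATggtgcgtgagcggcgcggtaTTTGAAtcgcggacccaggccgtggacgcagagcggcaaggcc
Cdc20: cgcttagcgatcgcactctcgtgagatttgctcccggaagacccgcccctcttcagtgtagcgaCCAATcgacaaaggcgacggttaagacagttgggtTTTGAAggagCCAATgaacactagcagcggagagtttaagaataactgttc

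A level here is the log2 intensity of a gene's probe minus the 75th percentile of the array, so 0 is the level of a probe at that percentile; levels of different genes come from different probes and are not compared with each other. Between 57.3% and 68.6% of the 58717 gene spots were well above background per array and no spot was saturated, so precision is set by having 2 arrays per group. All 37 genes entered the fit of 18480 genes, and 36 of them were well above background on at least 14 of the 16 arrays (Ccne2 on 8). Several labels met or failed their markers. RT1-Bb, a chain of RT1B, read 2.14 and 2.95 in WKY blood RT1B+ against 1.32 and 0.99 in RT1Blow. In glomeruli, however, RT1Blow replicate 2 read 3.16, above both RT1B+ arrays (2.45 and 2.54), while RT1Blow replicate 1 read 1.56. In comparisons that use replicate 2, the counts of called genes and the replication and mitosis medians are given with and without it. Counts of genes without overlap or with an unadjusted p under 0.05 are given only with it. The summed level of 11 T cell markers was 7.85 to 7.87 (log2) in the pan T arrays and 3.59 to 5.44 in all others, and the summed level of 6 NK cell markers was 7.39 to 8.28 in the CD8+ groups and 4.59 to 5.62 in the pan T and macrophage-labelled arrays. The array names of the macrophage-labelled samples read PANT+. There, Cd14 (3.77 and 3.31), Cd68 (4.42 and 3.38) and C1qa (2.33 and 1.94) were above every other array. C1qb (2.67 and 2.57) was above all other arrays except LEW blood RT1B+ replicate 1 (3.08). Lyz2 (6.95 and 6.34) overlapped LEW blood RT1Blow cells (6.85 and 6.39). Csf1r, Adgre1, Cd163 and Mrc1 were not highest there. Csf1r (mean -1.09) was below glomerular RT1Blow cells (-0.46). Adgre1 (mean -2.34) was below glomerular RT1Blow (-1.16), LEW blood RT1Blow (-0.025) and WKY blood RT1Blow cells (-1.26 and -0.98). All 9 macrophage markers summed to 6.81 to 7.42, which overlaps LEW blood RT1Blow cells (6.52 to 7.01). In the macrophage-labelled arrays Cd3e (-0.03 and -1.13) was below the pan T arrays (2.18 and 2.64). Cd3d (4.09 and 2.13) and Cd3g (3.61 and 1.97) were below them too, but replicate 1 was above every CD8+ array for both genes. The T cell markers there summed to 5.44 and 3.76. Cd163 was not well above background, and 9 kidney markers summed to 5.25 to 5.44 against at most -0.05 elsewhere.

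Across the 8 groups, the pan T arrays held the lowest mean level for 10 of the 15 replication genes and 21 of the 22 mitosis genes. The highest mean was in glomerular RT1B+ cells for 13 replication genes and 10 mitosis genes, in LEW blood RT1Blow cells for 9 mitosis genes, in LEW blood RT1B+ cells for 3 mitosis genes, and in glomerular RT1Blow cells for 2 replication genes. Set against each gene's mean over the groups, the replication genes had a median of 1.01 and 0.91 on the glomerular RT1B+ arrays, -0.21 and -0.78 on the macrophage-labelled arrays and -1.30 and -0.97 on the pan T arrays. The mitosis genes had a median of 0.80 and 0.26 on the glomerular RT1B+ arrays, 0.15 and -0.16 on the macrophage-labelled arrays and -2.71 and -1.50 on the pan T arrays. The same median over all genes tested lay between -0.30 and 0.20 on every array and was lowest on the macrophage-labelled arrays (-0.21 and -0.30), so the replication genes of the first of these arrays lay no lower than all genes. The 2 pan T arrays differed from each other: replicate 2 was above replicate 1 for 20 of 22 mitosis genes (median gap 1.12) and 11 of 15 replication genes (0.33), with a median gap of -0.01 over all genes tested. The sizes of the differences from pan T cells therefore rest on which pan T array is used, and a called difference of a named gene that moved by over 1.5 times on the log2 scale when 1 pan T array was left out is given without it. The pan T spread also enters the SE of comparisons that hold no pan T array, because each gene's spread was pooled over all groups. Ccna2 read -3.31 and -1.51 on the pan T arrays. Its blood RT1Blow pairs were closer, at -0.57 and -0.59 (WKY) and 0.86 and 0.50 (LEW). Its SE was 0.43 both between those pairs and against pan T cells. A call, or its absence, therefore does not rest on the spread of the compared arrays alone.

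**Figure D1:**
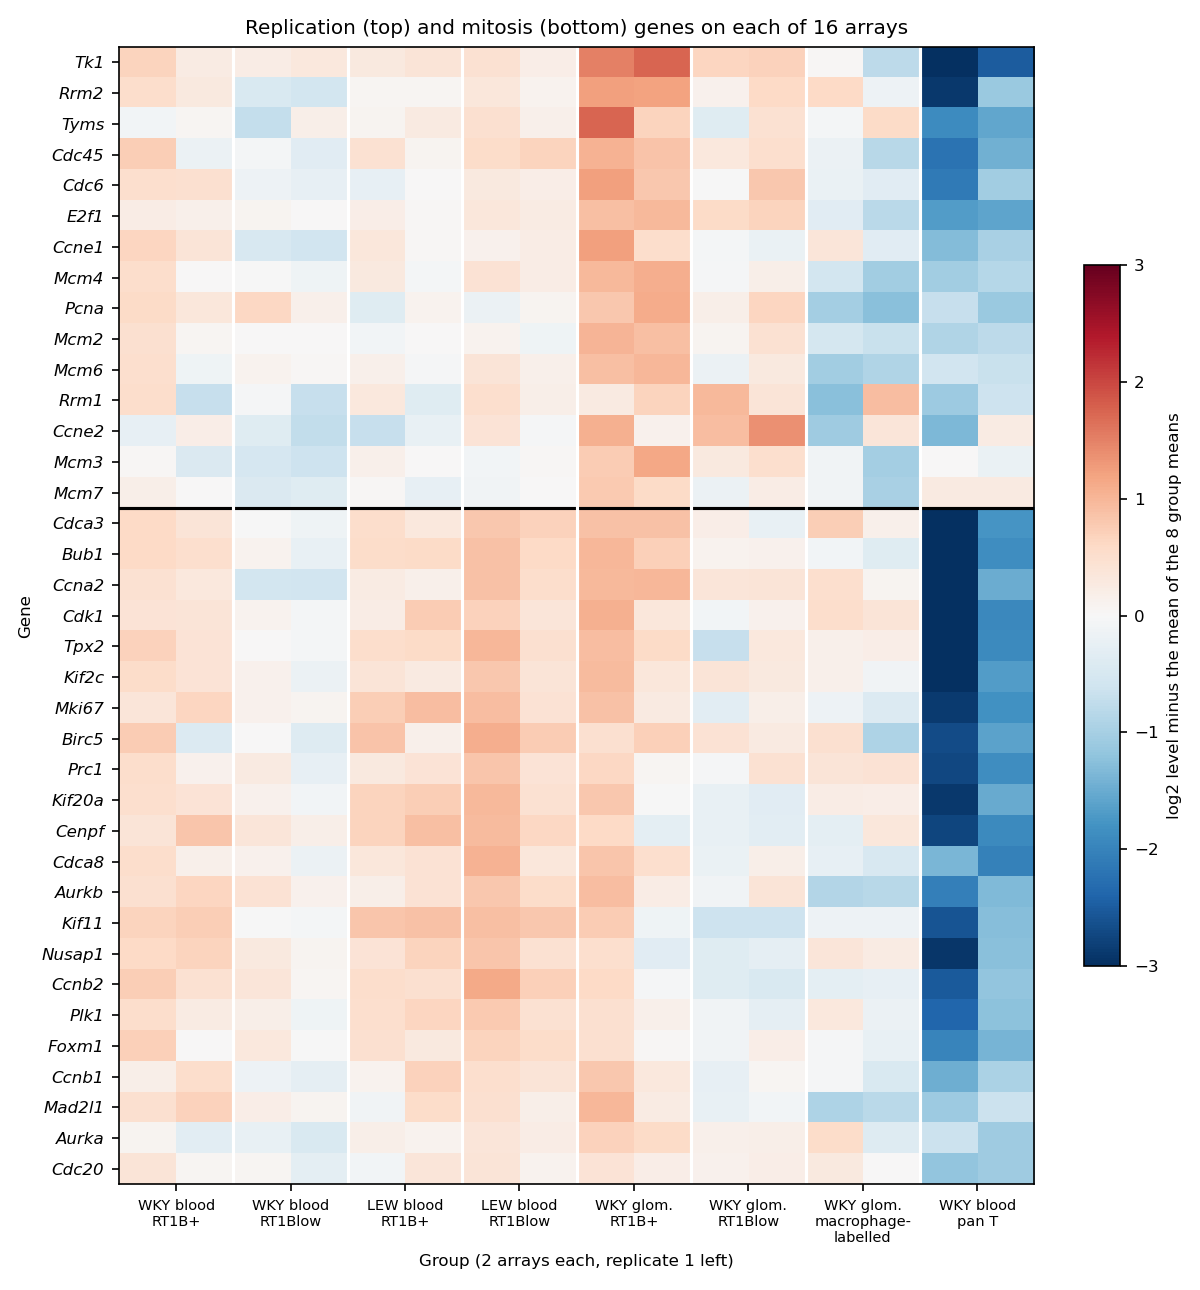
Heat map of the 37 genes (rows) on the 16 arrays (columns, 2 per group), coloured by the log2 level minus the gene's mean over the 8 groups, from -3 to 3. The pan T columns are lowest for nearly all mitosis genes, and the replication genes are highest in the glomerular RT1B+ columns.

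**Figure D2:**
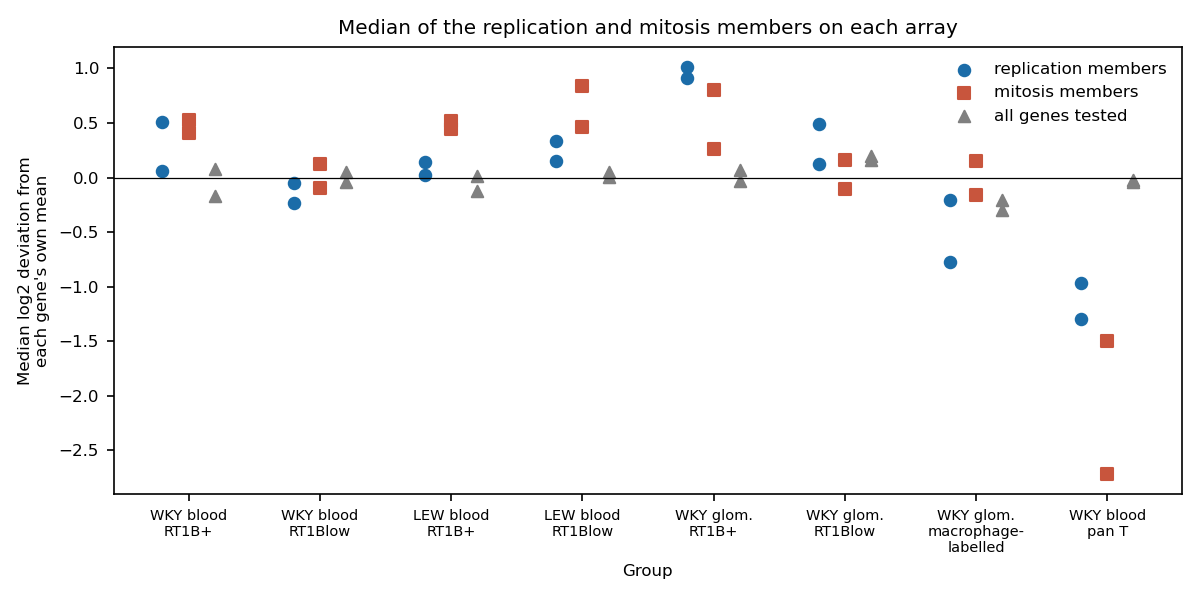
Median over the replication genes (circles), the mitosis genes (squares) and all genes tested (triangles) on each array, as log2 level minus each gene's mean over the groups. The mitosis median is -2.71 and -1.50 in pan T cells and the replication median is 1.01 and 0.91 in glomerular RT1B+ cells, while the median of all genes stays between -0.30 and 0.20.

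CD8+ RT1B+ cells of WKY blood were compared with pan T cells of WKY blood. These sorts differed in cell type markers. NK cell markers summed to 7.39 to 7.83 in RT1B+ cells and 4.63 to 5.21 in pan T cells. T cell markers summed to 4.52 to 5.09 and 7.85 to 7.87. In the same order B cell markers (8 genes) summed to 2.43 to 3.02 and 0.73 to 0.94. Plasma cell and plasmablast markers (5 genes) summed to 2.35 to 2.44 and 0.67 to 1.09. Erythroid markers (8 genes) summed to 2.88 to 5.16 and 8.99 to 9.25. The part of these markers in the result was not tested. A gene was called, and is said to have risen or fallen, where limma's test gave a Benjamini-Hochberg adjusted p under 0.05, the change was at least 2-fold, and all arrays of at least 1 compared group were well above background. In RT1B+ cells 31 of the 37 genes rose and 0 fell, where 8.99% of the 18480 genes tested rose and 7.8% fell. The median difference was 1.35 on the log2 scale for replication genes and 2.63 for mitosis genes, against -0.07 for all genes tested. These are bulk samples, so fewer dividing cells and less RNA of these genes per cell cannot be told apart. The RT1B+ and the pan T arrays lay on separate slides, so slide and group cannot be told apart here either.

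Of the 15 replication genes, 10 rose, Tk1 and Rrm2 by the most. Tk1, thymidine kinase, which salvages thymidine for DNA, read 2.13 and 1.69 in RT1B+ cells and -2.70 and -1.05 in pan T cells. Both pan T arrays lay far below both RT1B+ arrays, and Tk1 was 13.8-fold higher (log2 difference 3.79, SE 0.44, limma adjusted p = 0.000117; 2.96 without pan T replicate 1 and 4.61 without replicate 2). Rrm2, a subunit of ribonucleotide reductase, read 3.38 and 3.13 against -0.05 and 1.74, again without overlap, and was 5.31-fold higher (log2 difference 2.41, and 1.51 without pan T replicate 1). E2f1, the transcription factor of this set, read 0.69 and 0.61 against -1.22 and -1.12, close within each pair, and was 3.53-fold higher (log2 difference 1.82, SE 0.20, limma adjusted p = 7.83e-05). Cdc45 and Cdc6, which load and start the helicase, were 4.31-fold and 4.23-fold higher. The helicase itself moved less: Mcm4 and Mcm2 were 2.32-fold and 2.15-fold higher, calls lost without RT1B+ replicate 1 (log2 differences 0.95 and 0.90), and Pcna was 2.55-fold higher. Mcm6 was 1.76-fold higher (limma adjusted p = 0.0338), under the 2-fold minimum. Mcm7 read 2.79 and 2.65 in RT1B+ cells against 2.90 and 2.90 in pan T cells, lower on both arrays by less than the error (log2 difference -0.18, SE 0.27). Mcm3 read 3.24 and 2.79 against 3.23 and 3.01, which overlap (log2 difference -0.10, SE 0.30). Rrm1 was not called either (0.78, SE 0.62), nor was Ccne2, which was dim.

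Of the 22 mitosis genes, 21 rose, by 2.55-fold to 10.7-fold, and Aurka (1.67-fold, limma adjusted p = 0.0946) was not called. Cdk1, the kinase that starts mitosis, read 2.23 and 2.20 in RT1B+ cells and -1.51 and -0.11 in pan T cells and was 8.13-fold higher (log2 difference 3.02, SE 0.40, limma adjusted p = 0.000277). The RT1B+ arrays lay close together and far above both pan T arrays. Bub1, a spindle checkpoint kinase, read 0.57 and 0.45 against -3.27 and -1.91 and was 8.57-fold higher. Its other probe, above background nowhere, went the other way. Mki67, which encodes the proliferation marker Ki-67, read 2.32 and 2.61 against -0.90 and 0.16 and was 7.15-fold higher. Cdca3, which helps trigger mitotic entry, showed the largest difference of this set at 10.7-fold, and also the widest pan T pair (0.92 and 0.71 against -3.74 and -1.47; log2 difference 2.28 without pan T replicate 1 and 4.55 without replicate 2). Cenpf, a kinetochore protein, was at least 7.70-fold higher and Kif2c, a microtubule-depolymerising kinesin, at least 7.03-fold, because neither was well above background on either pan T array. Cdc20 (2.55-fold) and Mad2l1 (2.74-fold), an activator and an inhibitor of the anaphase-promoting complex, rose least. Over the mitosis genes the median difference was 1.93 without pan T replicate 1 and 3.21 without replicate 2.

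CD8+ RT1Blow cells of WKY blood differed from the same pan T arrays in 28 of the 37 genes, all higher, where 10% of all genes tested rose. These comparisons share the pan T arrays, so their values are given side by side and not counted as independent. Here too the groups lay on separate slides, so slide and group cannot be told apart. Mitosis genes again rose in 21 of 22, with Aurka the exception, and the median difference was 2.01. Replication genes rose in 7 of 15, with a median of 0.88, against 0.02 over all genes tested. Tk1 (1.69 and 1.76 against -2.70 and -1.05) was 12.1-fold higher, Cdk1 6.26-fold and E2f1 3.22-fold. Mcm2 (1.80-fold, limma adjusted p = 0.0133) and Mcm4 (1.84-fold, limma adjusted p = 0.0254) stayed under the 2-fold minimum. Mcm7 read 2.19 and 2.25, below both pan T arrays, with a log2 difference of -0.68 (SE 0.27, limma adjusted p = 0.1), and Mcm3 differed by -0.47 (SE 0.30). The erythroid markers, 8 genes led by the globins, summed to 8.99 to 9.25 in pan T cells, 7.07 to 9.35 in RT1Blow cells and 2.88 to 5.16 in RT1B+ cells of WKY blood. The T cell markers summed to 7.85 to 7.87 in pan T cells and at most 5.09 in these CD8+ cells. NK cell markers summed to 4.63 to 5.21 in pan T cells and 7.62 to 7.67 in RT1Blow cells. Plasma cell and plasmablast markers summed to 0.67 to 1.09 in pan T cells and 2.43 to 2.49 in RT1Blow cells. Macrophage markers (9 genes) summed to 4.79 to 4.83 in pan T cells and 5.25 to 5.45 in RT1Blow cells. B cell markers overlapped (0.73 to 0.94 and 0.86 to 1.08). The part of these markers in the result was not tested.

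CD8+ cells from glomeruli were compared with pan T cells on the same slide but in a different slide row, so slide row and group cannot be told apart. In glomerular RT1B+ cells 34 of the 37 genes rose and 0 fell, where 16.1% of all genes tested rose and 11.1% fell, and all 22 mitosis genes and 12 of 15 replication genes were among them. The median difference was 1.98 for replication and 2.42 for mitosis genes, against 0.04 for all genes tested. Tk1 read 2.97 and 3.20, the highest pair of any group, and was 31.1-fold higher than in pan T cells (log2 difference 4.96, SE 0.44, limma adjusted p = 1.37e-05; 4.13 without pan T replicate 1 and 5.78 without replicate 2). E2f1 read 1.37 and 1.44, also above every other array, and was 5.96-fold higher (log2 difference 2.57, SE 0.20, limma adjusted p = 5.56e-06). Rrm2 was 9.31-fold, Tyms, which makes thymidylate, 7.61-fold and Cdc45 6.87-fold higher. Of the helicase genes, Mcm4 rose 3.96-fold, Mcm2 3.48-fold, Mcm6 2.98-fold and Mcm3 2.07-fold. The call of Mcm3 was lost without glomerular RT1B+ replicate 2 (log2 difference 0.86), without pan T replicate 2 (0.94) and under 4 other settings. Mcm7 (3.42 and 3.20 against 2.90 and 2.90) was above both pan T arrays by a log2 difference of 0.41 (SE 0.27, limma adjusted p = 0.278) and was not called, like Rrm1 and Ccne2. Among the mitosis genes, Cdca3 rose 13.9-fold, Bub1 10.6-fold, Ccna2, the cyclin of S and G2 phase, 10.3-fold and Cdk1 10-fold; Cdc20 (2.69-fold) moved least.

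In glomerular RT1Blow cells 32 of the 37 genes rose and 0 fell against pan T cells, where 18.4% of all genes tested rose. The medians were 1.54 for the replication and 1.87 for the mitosis genes, against 0.22 for all genes tested. Tk1 (2.10 and 2.15) was 16-fold higher, E2f1 (1.05 and 1.14) 4.80-fold and Ccna2 (0.34 and 0.36) 6.77-fold. Mcm6 (1.62-fold), Mcm3 (1.40-fold), Mad2l1 (1.64-fold), Rrm1 (2.90-fold, limma adjusted p = 0.071) and Mcm7 (log2 difference -0.25, SE 0.27) were not called. Without RT1Blow replicate 2, the array with high RT1-Bb, 25 genes rose, with medians of 1.36 and 1.80. Erythroid markers summed to 5.86 to 7.56 in these cells and 0.70 to 2.47 in glomerular RT1B+ cells, against 8.99 to 9.25 in pan T cells. Macrophage markers, 9 genes, summed to 6.37 to 6.71 and 5.42 to 6.16, against 4.79 to 4.83 in pan T cells. NK cell markers summed to 7.67 to 8.28 and 7.49 to 7.61, against 4.63 to 5.21 in pan T cells. T cell markers summed to 4.11 to 4.79 and 4.16 to 4.17, against 7.85 to 7.87 in pan T cells. B cell markers summed to 1.25 to 1.48 and -1.04 to -0.49, against 0.73 to 0.94 in pan T cells. Plasma cell and plasmablast markers summed to 1.96 to 2.81 and 2.22 to 2.45, against 0.67 to 1.09 in pan T cells. The part of these markers in the result was not tested.

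**Figure D3:**
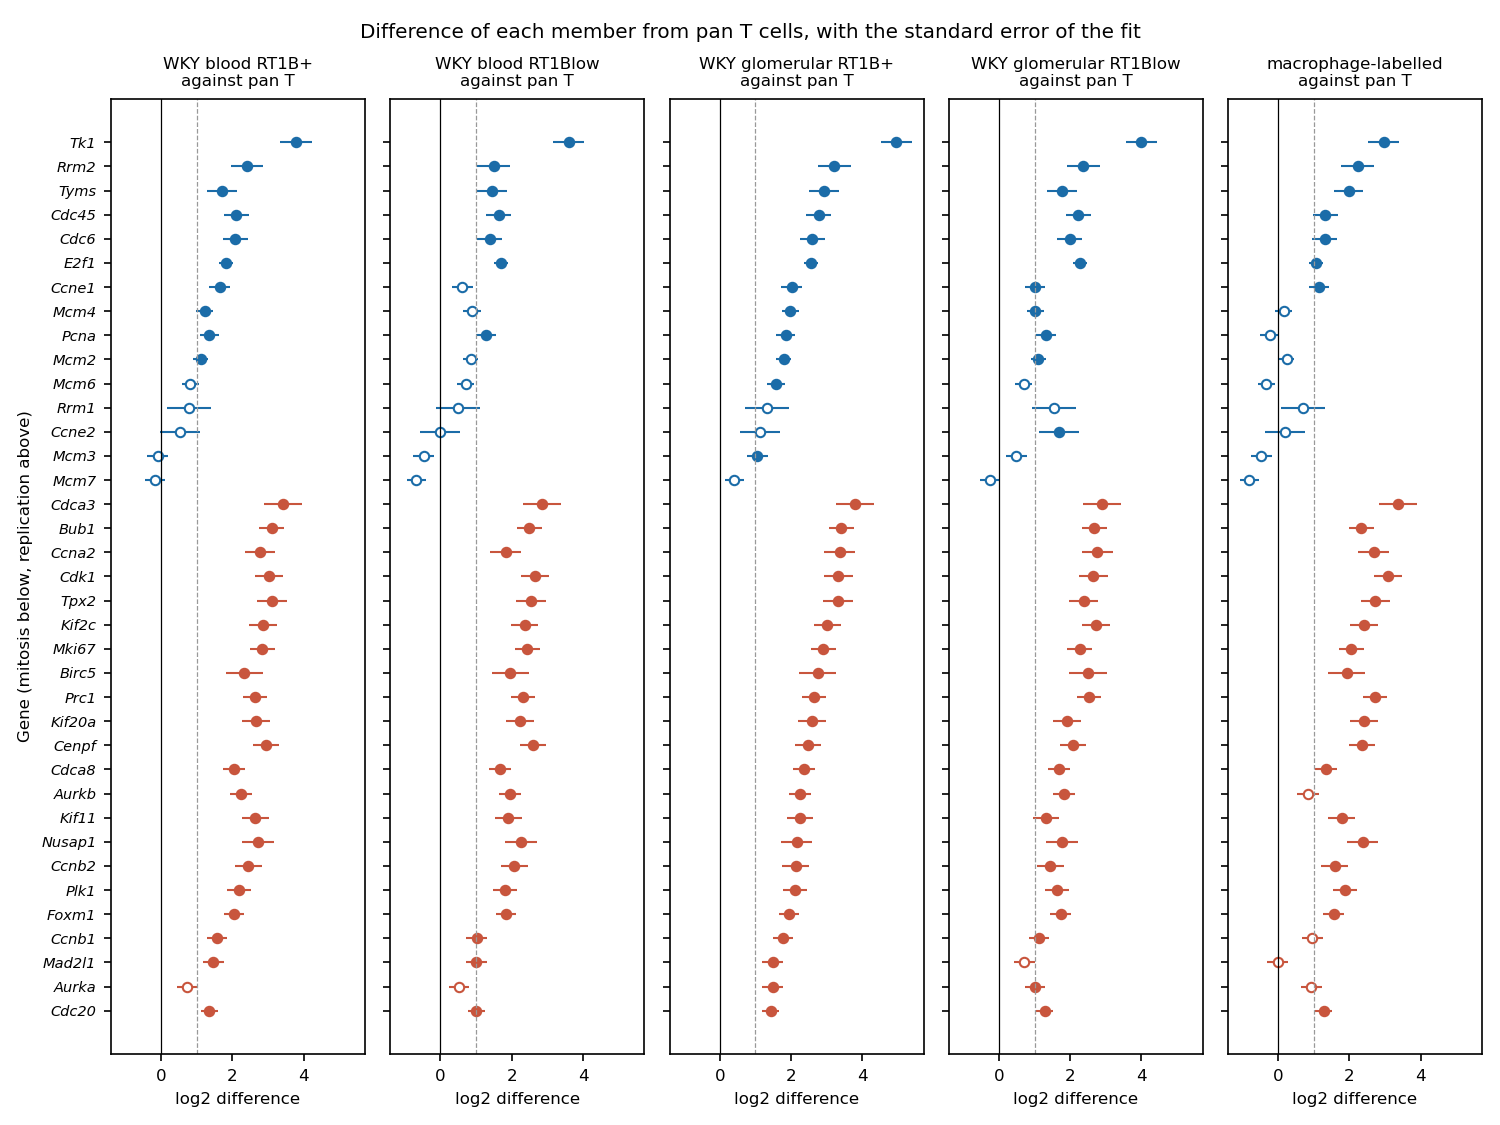
Log2 difference from pan T cells with its SE for each gene, in 5 panels for the 5 other groups of WKY cells; replication genes (blue) stand above mitosis genes (red), filled points were called and the dashed line marks 2-fold. Nearly all mitosis genes lie right of the line in every panel, while Mcm7 and Mcm3 lie left of 0 in the blood and macrophage-labelled panels.

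The macrophage-labelled cells of WKY glomeruli were compared with pan T cells of blood on the same slide. They sat in different slide columns, so slide column and group cannot be told apart. Here 25 of the 37 genes rose and 0 fell, where 17.8% of all genes tested rose and 19.7% fell. Of the mitosis genes 18 of 22 rose, with a median difference of 1.99, and of the replication genes 7 of 15, with a median of 0.70, against -0.22 for all genes tested. Cdk1 read 2.33 and 2.20, within the range of the CD8+ groups, and was 8.43-fold higher than in pan T cells (log2 difference 3.08, SE 0.40, limma adjusted p = 9.49e-05). Cdca3 was 10.2-fold higher, Prc1, a microtubule bundler of the dividing cell's midzone, 6.59-fold and Ccna2 6.42-fold. Tk1 read 1.49 and 0.68 and was 7.76-fold higher. The other replication genes that rose were Rrm2 (4.69-fold), Tyms (3.93-fold), Cdc45 (2.50-fold), Cdc6 (2.47-fold), Ccne1, the cyclin of the G1 to S step (2.21-fold), and E2f1 (2.10-fold). Without macrophage-labelled replicate 1 the calls of Cdc45, Ccne1 and E2f1 were lost (log2 differences 1.0, 0.79 and 0.84), and without pan T replicate 1 those of Cdc45, Cdc6 and Ccne1 (0.95, 0.76 and 0.97). Without pan T replicate 1 the log2 difference of Cdca3 went from 3.35 to 2.21, that of Ccna2 from 2.68 to 1.78 and that of Rrm2 from 2.23 to 1.33, and all 3 were still called.

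None of the helicase and clamp genes measured was called in the macrophage-labelled cells. Pcna read 3.15 and 2.93 against 3.49 and 3.07 in pan T cells, values that overlap (log2 difference -0.24, SE 0.28, limma adjusted p = 0.492). Mcm6 read -0.97 and -0.83 against -0.52 and -0.62, lower on both arrays (log2 difference -0.33, SE 0.24). Mcm7 read 2.52 and 1.65 against 2.90 and 2.90, also lower on both, with a log2 difference of -0.81 (SE 0.27, limma adjusted p = 0.0291) that was under the 2-fold minimum. Without macrophage-labelled replicate 1 it was -1.25 and passed the call. Mcm2 (0.24, SE 0.21) and Mcm3 (-0.47, SE 0.30) were not called. Of the mitosis genes, Aurkb, the aurora kinase of the chromosomal passenger complex (1.78-fold, limma adjusted p = 0.0436), Aurka, Ccnb1 and Mad2l1 were not called. Kidney markers were well above background for 8 of 9 genes in these arrays. They summed to 5.25 to 5.44, against -1.62 to -0.52 in pan T cells. Erythroid markers summed to 6.75 to 7.69, below the 8.99 to 9.25 of pan T cells, and macrophage markers to 6.81 to 7.42 against 4.79 to 4.83. B cell markers summed to -0.35 to -0.31 against 0.73 to 0.94. Plasma cell and plasmablast markers summed to 2.84 to 3.50 against 0.67 to 1.09. T cell markers summed to 3.76 to 5.44 in these arrays against 7.85 to 7.87 in pan T cells. The part of these markers in the result was not tested.

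Within glomeruli, RT1B+ CD8+ cells and macrophage-labelled cells were compared on the same slide. They sat in different slide rows, so slide row and group cannot be told apart. The 2 groups also differed in markers. NK cell markers summed to 7.49 to 7.61 in RT1B+ against 4.59 to 5.62, and kidney markers to -2.05 to -0.82 against 5.25 to 5.44. Erythroid markers summed to 0.70 to 2.47 against 6.75 to 7.69, and macrophage markers to 5.42 to 6.16 against 6.81 to 7.42. B cell and plasma cell markers were also lower in RT1B+ without overlap, and T cell markers overlapped. The part of these markers in the result was not tested. In the RT1B+ cells 14 of the 37 genes rose and 0 fell, where 20.4% of all genes tested rose and 16% fell. The rise was in 10 of 15 replication genes and 4 of 22 mitosis genes, with medians of 1.46 and 0.55 against 0.33 for all genes tested. Pcna read 4.98 and 5.29 in RT1B+ cells against 3.15 and 2.93, far apart and close within each pair, and was 4.27-fold higher (log2 difference 2.09, SE 0.28, limma adjusted p = 0.000141). Tk1 was 4-fold higher (2.97 and 3.20 against 1.49 and 0.68). All 5 helicase genes measured rose: Mcm6 3.76-fold (0.96 and 1.06 against -0.97 and -0.83), Mcm4 3.57-fold, Mcm2 2.95-fold, Mcm3 2.87-fold and Mcm7 2.33-fold. E2f1 rose 2.84-fold, Cdc45 2.74-fold and Cdc6 2.46-fold. Of these, Cdc45 (log2 difference 1.14, limma adjusted p = 0.0502), Cdc6 (1.23, limma adjusted p = 0.0531) and Mcm7 (0.78) were not called without macrophage-labelled replicate 2, and 10 genes were called then. Cdc6 (1.09) was not called without RT1B+ replicate 1 either.

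Of the 22 mitosis genes 4 rose over the macrophage-labelled cells, a smaller share than the 20.4% of all genes tested. They were Mad2l1, a spindle checkpoint protein (2.82-fold), Aurkb (2.68-fold), Bub1 (2.10-fold) and Cdca8, a partner of Aurkb in the passenger complex (2.04-fold). Bub1 (log2 difference 0.93) and Cdca8 (0.91) lost their calls without macrophage-labelled replicate 2 and without RT1B+ replicate 1 (0.93 and 0.86), and Bub1 also without RT1B+ replicate 2 (1.21) and with the mean of its 2 probes (0.11). Cdk1 was not called: it read 2.88 and 2.16 against 2.33 and 2.20, which overlap, with a log2 difference of 0.25 (SE 0.40, limma adjusted p = 0.622) whose sign turned with quantile normalisation (-0.049) and with a percentile over detected probes alone (-0.13). Prc1 (-0.07, SE 0.34) and Nusap1, a spindle protein (-0.22, SE 0.44), also did not differ by more than their error. Glomerular RT1Blow and macrophage-labelled cells differed in markers too. NK cell markers summed to 7.67 to 8.28 in RT1Blow against 4.59 to 5.62, and kidney markers to -0.42 to -0.20 against 5.25 to 5.44. Macrophage markers summed to 6.37 to 6.71 against 6.81 to 7.42, and B cell markers to 1.25 to 1.48 against -0.35 to -0.31. Erythroid and T cell markers overlapped. The part of these markers in the result was not tested. In glomerular RT1Blow cells 4 of the 37 genes rose over the macrophage-labelled cells, a smaller share than the 22.8% of all genes tested. All 4 were among the 15 replication genes, where the share was near that of all genes. They were Pcna (2.94-fold), Ccne2 (dim in the macrophage-labelled arrays, 2.83-fold as measured and at least 1.92-fold), E2f1 (2.29-fold) and Mcm6 (2.04-fold). The medians there were 0.87 for replication and 0.04 for mitosis genes, the latter turning to -0.28 with the percentile over detected probes, -0.02 with the authors' series matrix and -0.029 without RT1Blow replicate 2, against 0.43 for all genes tested. Without RT1Blow replicate 2, 2 genes rose and the replication median was 0.80. Left out singly, that array ended the calls of Mcm6 (log2 difference 0.80) and Ccne2 (1.29), RT1Blow replicate 1 that of Ccne2 (1.71), macrophage-labelled replicate 1 those of Ccne2 (0.78) and Mcm6 (0.96), and macrophage-labelled replicate 2 that of E2f1 (0.97).

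**Figure D4:**
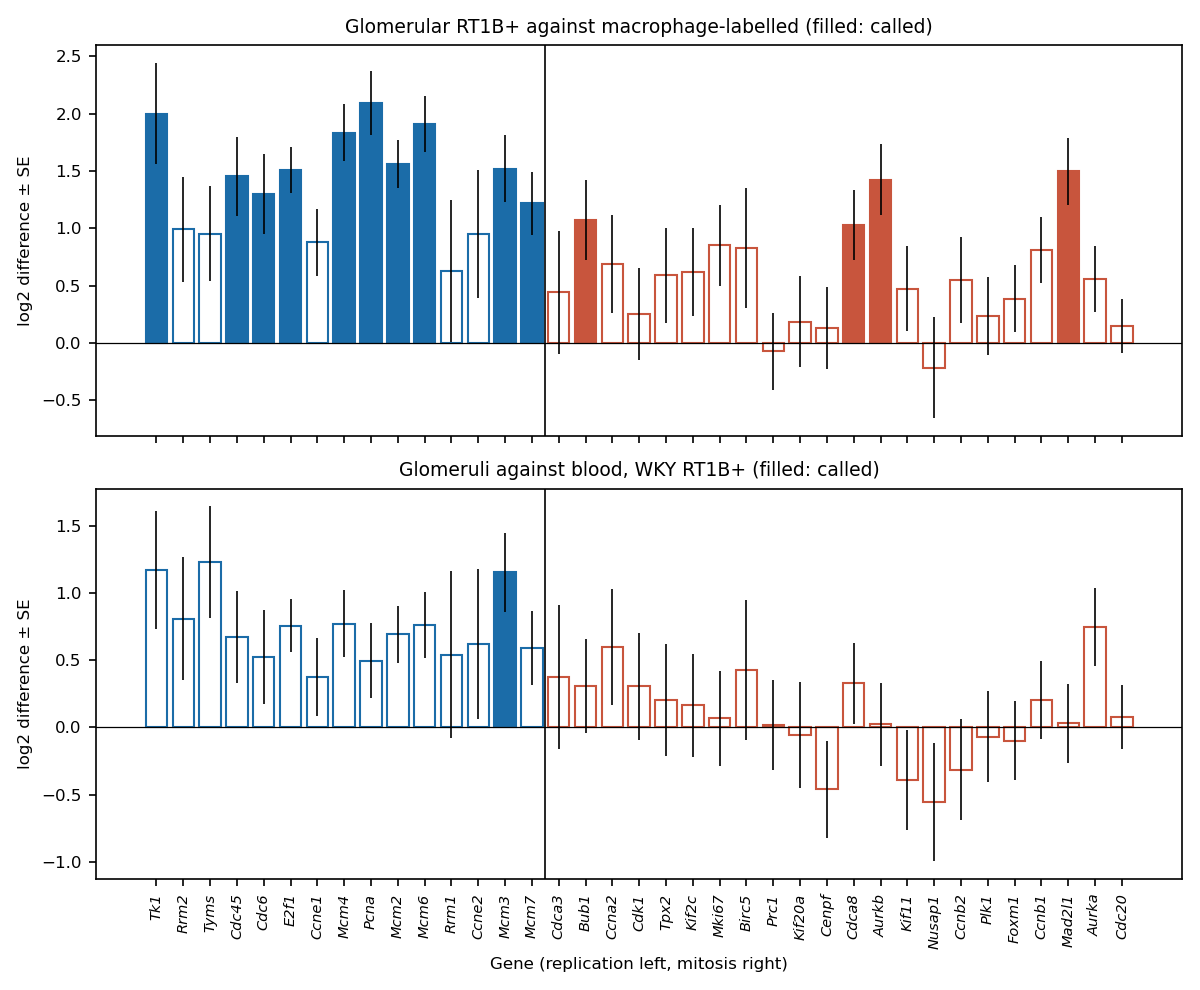
Log2 difference with its SE for each gene in glomerular RT1B+ cells against macrophage-labelled cells (top) and against RT1B+ cells of WKY blood (bottom); filled bars were called. Replication genes stand higher than most mitosis genes in both rows, from Pcna at 2.09 to Nusap1 at -0.22 in the top row, and Mcm3 at 1.15 is the called gene of the bottom row.

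Glomerular and blood cells of the same sort were compared to ask what differs where the cells infiltrate the kidney; the 2 tissues lay on different slides, so slide and tissue cannot be told apart. In RT1B+ cells 1 of 37 genes rose, where 8.05% of all genes tested rose. This was the helicase gene Mcm3, at 3.98 and 4.36 in glomeruli against 3.24 and 2.79 in blood, 2.22-fold higher (log2 difference 1.15, SE 0.30, limma adjusted p = 0.0217). With quantile normalisation, the percentile over detected probes, the series matrix or the mean of its probes it was under 2-fold (log2 differences 0.81, 0.99, 0.99 and 0.98). The call was also lost without blood RT1B+ replicate 2 (0.93, limma adjusted p = 0.122) and without glomerular RT1B+ replicate 2 (0.96, limma adjusted p = 0.164). All 15 replication genes were higher in glomeruli on average, where 55.6% of all genes tested were, with a median of 0.69. For 12 of them both glomerular arrays exceeded both blood arrays, where 31.9% of all genes tested did so. E2f1 (1.69-fold, limma adjusted p = 0.0236) and Mcm2 (1.62-fold, limma adjusted p = 0.0448) passed the p threshold under 2-fold. Tyms (2.34-fold, limma adjusted p = 0.065) and Tk1 (2.25-fold, limma adjusted p = 0.0909) passed 2-fold without the p. Of the mitosis genes 15 of 22 were higher, beside the 55.6% of all genes tested. Their median was 0.07 against 0.10 for all genes tested, and 4 of 22 had no overlap in that direction. That mitosis median turned to -0.09 with the percentile over detected probes.

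In RT1Blow cells, 0 of 37 genes were called between glomeruli and blood by limma, where 6.29% of all genes tested rose; 3 passed an unadjusted p under 0.05, where 31.1% of all genes tested did, all replication genes and all higher in glomeruli, and the lowest adjusted p was 0.056. The medians were 0.42 for replication and -0.05 for mitosis genes against 0.17 for all genes tested. Without glomerular RT1Blow replicate 2 they were 0.38 and -0.15, with 0 called. The macrophage markers summed to 6.37 to 6.71 in glomerular and 5.25 to 5.45 in blood RT1Blow cells, and to 5.42 to 6.16 against 2.15 to 5.04 in RT1B+ cells. In RT1B+ cells B cell markers (8 genes) summed to -1.04 to -0.49 in glomeruli against 2.43 to 3.02 in blood, erythroid markers to 0.70 to 2.47 against 2.88 to 5.16, T cell markers to 4.16 to 4.17 against 4.52 to 5.09, and kidney markers to -2.05 to -0.82 against -3.43 to -2.13, none with overlap. In RT1Blow cells B cell markers (1.25 to 1.48 against 0.86 to 1.08), T cell markers (4.11 to 4.79 against 3.74 to 4.03) and kidney markers (-0.42 to -0.20 against -2.95 to -0.60) also did not overlap. The part of these markers in the result was not tested.

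The RT1B gate was compared within each source of cells, to ask whether CD8+ cells that carry RT1B differ from those that carry little. In the 3 sources 0 of 37 genes were called by limma, where 0.0703% of all genes tested were called in WKY blood, 0.0595% in LEW blood and 0.639% in WKY glomeruli. In WKY blood all 37 genes were higher in RT1B+ cells on average, where 42% of all genes tested were. The median was 0.38, against -0.06 for all genes tested, and 27 had both RT1B+ arrays above both RT1Blow arrays, where 12.4% of all genes tested did. The largest difference was in Ccne1 (-0.17 and -0.42 against -1.28 and -1.37), 1.03 (SE 0.29, limma adjusted p = 0.476), and it was the 1 gene with an unadjusted p under 0.05, where 5.23% of all genes tested had one. In LEW blood 6 of 37 were higher, where 39.8% of all genes tested were, and the median was -0.16 against -0.07 for all genes tested. There 15 had both RT1B+ arrays below both RT1Blow arrays, where 21.2% of all genes tested did. In the same cells 0 passed an unadjusted p under 0.05, where 3.63% of all genes tested did. In glomeruli 35 of 37 were higher in RT1B+ cells, where 40% of all genes tested were. The median was 0.63, and 28 had no overlap in that direction, where 18.6% of all genes tested did. There 11 genes passed an unadjusted p under 0.05, all higher in RT1B+ cells, where 20.5% of all genes tested did in either direction, and the lowest adjusted p was that of Mcm4 (2.63 and 2.75 against 1.62 and 1.84; 0.96, SE 0.25, limma adjusted p = 0.0839).

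RT1B+ and RT1Blow arrays sat in different slide columns throughout, so slide column and gate cannot be told apart. Without glomerular RT1Blow replicate 2, 0 genes were called there, 35 were higher in RT1B+ cells and the medians were 0.89 for replication and 0.63 for mitosis genes. The median of all genes tested in glomeruli was -0.15 as reported and moved to between -0.34 with normexp background and 0.03 with the series matrix. The gates also differed in other cells' markers. Erythroid markers summed to 7.07 to 9.35 in WKY blood RT1Blow against 2.88 to 5.16 in RT1B+, 9.56 to 9.73 against 3.08 to 3.09 in LEW blood, and 5.86 to 7.56 against 0.70 to 2.47 in glomeruli. B cell markers, 8 genes, summed to 2.43 to 3.02 in WKY blood RT1B+ against 0.86 to 1.08 in RT1Blow, and to 3.43 to 3.81 against 0.95 to 1.55 in LEW blood. In glomeruli they were lower in RT1B+ (-1.04 to -0.49) than in RT1Blow (1.25 to 1.48). T cell markers summed to 4.52 to 5.09 in WKY blood RT1B+ against 3.74 to 4.03 in RT1Blow, and overlapped between the gates in LEW blood and glomeruli. Macrophage markers were lower in RT1B+ without overlap in WKY blood (2.15 to 5.04 against 5.25 to 5.45) and glomeruli (5.42 to 6.16 against 6.37 to 6.71), and overlapped in LEW blood. The 5 plasma cell and plasmablast markers summed to 2.35 to 2.44 in WKY blood RT1B+ against 2.43 to 2.49 in RT1Blow. Of that list, Mzb1 and Tnfrsf17 had means of -2.51 and -2.37 in RT1B+ there, against -5.05 and -5.39 in RT1Blow, where 1 and 0 of the 2 arrays were well above background. Xbp1 and Prdm1 overlapped there, and Sdc1 was lower in RT1B+ (0.92 and 0.44 against 0.95 and 0.93). In LEW blood RT1B+, Mzb1 (-3.50 and -3.67 against -5.97 and -5.91) and Tnfrsf17 (-4.71 and -4.14 against -7.13 and -5.81) were higher too. In glomerular RT1B+, Mzb1 (-7.27 and -7.27 against -6.36 and -5.68) and Tnfrsf17 (-7.89 and -7.41 against -5.76 and -4.93) were lower. The part of these markers in the result was not tested.

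**Figure D5:**
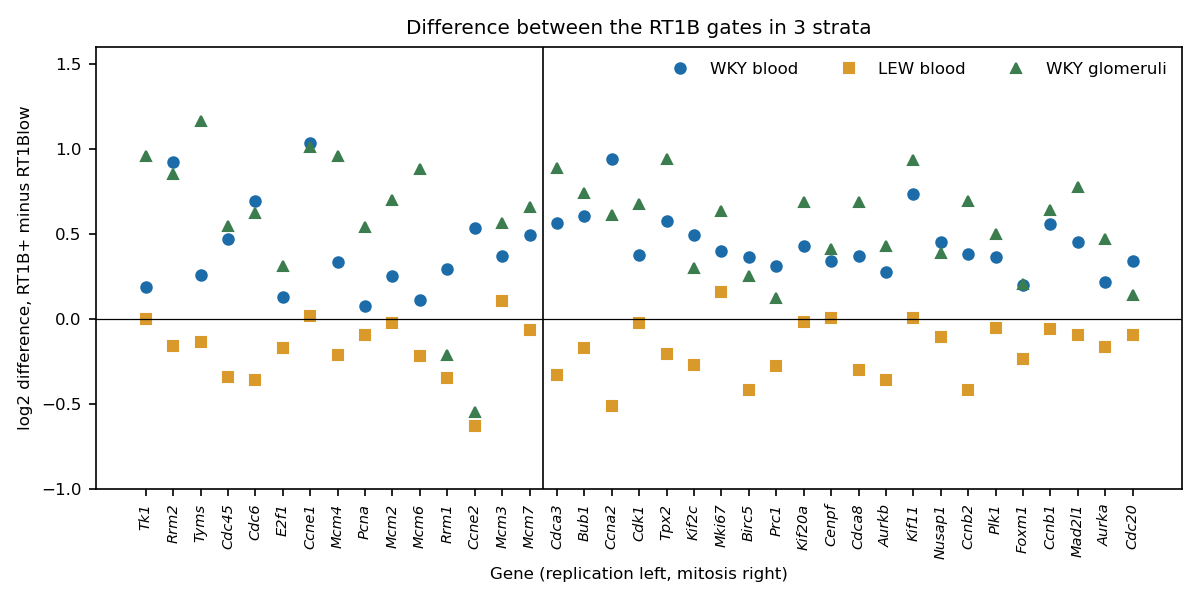
Log2 difference of RT1B+ minus RT1Blow for each gene in WKY blood, LEW blood and WKY glomeruli, with replication genes on the left and mitosis genes on the right. The points lie above 0 for all 37 genes in WKY blood, for 6 in LEW blood and for 35 in glomeruli, and none was called.

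The strains were compared in blood cells of each gate. WKY and LEW blood arrays sat in different rows of the same slide, so slide row and strain cannot be told apart. In RT1B+ cells 0 of 37 genes were called between WKY and LEW by limma, where 0.639% of all genes tested were called. At an unadjusted p under 0.05, 0 passed, where 10.1% of all genes tested did. Of the 37 genes 21 were higher in WKY, where 51.3% of all genes tested were, and the median was 0.07. In RT1Blow cells 0 of 37 were called, where 0.915% of all genes tested were called. There 35 genes were lower and 2 higher in WKY on average, where 49.4% of all genes tested were higher. The median was -0.60 against -0.01 for all genes tested, and 32 had both WKY arrays below both LEW arrays, where 29.3% of all genes tested did. At an unadjusted p under 0.05, 7 passed, where 11.8% of all genes tested did. The largest difference was in Ccna2, which read -0.57 and -0.59 in WKY and 0.86 and 0.50 in LEW (-1.26, SE 0.43, limma adjusted p = 0.253). With the series matrix the median of all genes tested moved from 0.01 to -0.32 in RT1B+ cells and from -0.01 to -0.32 in RT1Blow cells, and the number of genes higher in WKY RT1B+ cells from 21 to 7. In RT1Blow cells macrophage markers summed to 5.25 to 5.45 in WKY against 6.52 to 7.01 in LEW and erythroid markers to 7.07 to 9.35 against 9.56 to 9.73, both without overlap; their part in the result was not tested.

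Whether the gate acted differently in the 2 strains was tested as an interaction. Slide row and strain cannot be told apart here either. In limma 0 of 37 genes passed it, where 0% of all genes tested did, and 2 passed an unadjusted p under 0.05, where 1.31% of all genes tested did. The RT1B+ minus RT1Blow difference was larger in WKY than in LEW blood for all 37 genes, with a median of 0.56; for Ccna2 it was larger by 1.45 (SE 0.61, limma adjusted p = 1). Over all genes tested the RT1B+ minus RT1Blow difference was larger in WKY for 51%, with a median of 0.01. Between WKY glomeruli and WKY blood the gate's effect differed by a median of 0.17, against -0.07 for all genes tested. Over all genes tested that difference was above 0 for 44.8%. There 0 of 37 genes passed, where 0.103% of all genes tested did, and 1 passed an unadjusted p under 0.05, where 7.06% of all genes tested did. The difference was above 0 for 26 genes, with medians of 0.18 for replication and 0.14 for mitosis genes; without glomerular RT1Blow replicate 2 it was above 0 for 29, the medians were 0.33 and 0.18, and 0 passed. Over the 3 sources together the gate's common effect called 0 of 37 genes, where 0.552% of all genes tested were called, and 7 passed an unadjusted p under 0.05, where 16% of all genes tested did. That effect was above 0 for 35 genes, where 38.8% of all genes tested were above 0, with medians of 0.32 and 0.26. Without glomerular RT1Blow replicate 2 it was again above 0 for 35, with medians of 0.38 and 0.28, and 0 were called.

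Other genes of the same pathways were listed and counted in the same fit. Of all genes tested, 8.99% rose and 7.8% fell in blood RT1B+, 16.1% rose and 11.1% fell in glomerular RT1B+, and 17.8% rose and 19.7% fell in macrophage-labelled cells, each against pan T cells. Of 35 other mitosis genes tested, 26 rose and 1 fell in blood RT1B+ cells against pan T cells, 26 rose and 1 fell in glomerular RT1B+ cells, and 21 rose and 4 fell in macrophage-labelled cells. Cks2, a small partner of the cyclin-dependent kinases, was 35.8-fold higher in blood RT1B+ cells (log2 difference 5.16, SE 0.38, limma adjusted p = 7.6e-06) and 42.4-fold in glomerular RT1B+ cells. Ttk, a spindle checkpoint kinase, was 9.25-fold higher in blood RT1B+ cells. In macrophage-labelled cells Iqgap3 rose at least 38.8-fold and Ect2, an activator of cytokinesis, 9.25-fold, while Cdc25b, a phosphatase that activates Cdk1, fell by 3.54 on the log2 scale. Of 35 other replication genes tested, 16 rose in blood RT1B+ cells, 24 in glomerular RT1B+ cells and 4 in macrophage-labelled cells, and 0, 0 and 3 fell; the 4 that rose in macrophage-labelled cells are a smaller share than that of all genes. Gmnn, the licensing inhibitor geminin, was 14.3-fold, 20.7-fold and 4.21-fold higher in the 3 groups (the last call lost without macrophage-labelled replicate 1, at a log2 difference of 1.44, and without pan T replicate 1, at 1.25), and Gins1, a helicase subunit, was 5.40-fold higher in blood RT1B+ and 3.66-fold in macrophage-labelled cells. Cdc7, the kinase that fires replication origins, fell by 2.50 in macrophage-labelled cells. In glomerular RT1B+ against macrophage-labelled cells 26 of the 35 other replication genes rose and 0 fell, and 9 of the 35 other mitosis genes rose and 1 fell, with medians of 1.46 and 0.85, where 20.4% of all genes tested rose and 16% fell. Pole, the leading-strand polymerase, was 4.73-fold higher there, Ung, which removes uracil from DNA, 4.70-fold, Cks1b 5.43-fold and Iqgap3 fell by 2.40. In promoters, 15 of 35 other replication genes (42.9%) held the E2F motif and 33 of 42 other mitosis genes (78.6%) the CHR motif.

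Where a gene had more than 1 probe, 13 further probes were compared with the one used. They pointed the same way for 12 of 13 in blood RT1B+ and 12 of 13 in glomerular RT1B+ against pan T cells (the exception being Bub1), for 10 of 13 in macrophage-labelled cells (the exceptions being Bub1, Mcm2 and Mcm4, the last 2 not called), and for 11 of 13 in glomerular RT1B+ against macrophage-labelled cells (the exceptions being Bub1 and Prc1).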

How the data were processed

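Expression was measured on 16 Agilent 1-colour rat arrays on 2 slides, 2 arrays for each of 8 groups, grouped by the labels. Per the file headers, the deposited spot signals are intensities on a linear scale from Feature Extraction 11.0.1.1, background-subtracted and detrended, with no scaling across arrays. The values in the deposited series matrix are on a log2 scale, with a median of 7.91 in each column; the matrix was matched by feature number (62676 of 62976 features) and used as an alternative. The series' design text describes another maker's arrays, and the files were followed. Levels were log2 intensity minus the 75th percentile of the array. Control spots and outlier flags were left out and replicate spots averaged. Probe names came from RefSeq accessions, of which 18355 of 30367 gene probes matched a symbol; each gene is given by the probe with the highest mean. A total of 18480 genes, each well above background on both arrays of some group, were fitted over all 16 arrays with limma 3.58.1 (R 4.3.3 and its package data.table, version 1.17.8) in 17 comparisons, and p-values were adjusted over all genes tested. A fold is given as "at least" where the lower group was near background, with that group raised to the lowest signal well above background on each array. The files hold median and not mean spot signals, so the normexp alternative (offset 50) used medians. Any gene of the 40 could be named in any comparison, and of each other list up to 6 called genes with the largest change. The genes, lists and tests were chosen with earlier results of these data known. The script was tested on simulated data. The plots and the motif search used Python 3.11.15, with matplotlib 3.10.9.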

Additional observations from a re-analysis of the deposited data

How the results depend on the processing

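Under the alternatives, 247 recounts of the members called were within 1.5 times the count as reported and 18 were not, and the signs of the called members did not turn in any pan T or macrophage-labelled comparison. Leaving out 1 array gave 28 to 31 called members for blood RT1B+ against pan T cells (31 as reported), 19 to 26 for blood RT1Blow (28), 33 to 34 for glomerular RT1B+ (34), 25 to 31 for glomerular RT1Blow (32), 21 to 27 for macrophage-labelled (25), and 10 to 18 for glomerular RT1B+ against macrophage-labelled cells (14). For glomeruli against blood in RT1B+ cells (1 as reported), 0 were called with quantile normalisation, the percentile over detected probes, the series matrix, the mean of all probes and only the arrays compared, 3 with no fold minimum and 2 with trended and robust variance; leaving out 1 array gave 0 (without blood RT1B+ replicate 2) to 3 (without blood RT1B+ replicate 1). In RT1Blow cells (0 as reported) 1 was called with the series matrix and with only the arrays compared. For glomerular RT1Blow against macrophage-labelled cells (4 as reported), 1 was called with the percentile over detected probes, 2 with the series matrix, 2 with only the arrays compared and 9 with no fold minimum; leaving out 1 array gave 2 (without RT1Blow replicate 2) to 6 (without macrophage-labelled replicate 1). For WKY against LEW RT1Blow cells (0 as reported) 1 was called with only the arrays compared and with only the arrays of the slide. Fewer arrays enter the fits of only the arrays compared or of the slide; the cause of the other shifts was not tested.

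Signs turned for members that were not called. In glomerular RT1B+ against macrophage-labelled cells, Cdk1 was -0.049 with quantile normalisation, -0.13 with the percentile over detected probes and -0.11 to 0.62 with 1 array left out; Prc1 was 0.32 with the mean of all probes and -0.35 to 0.21 with 1 array left out; Nusap1 was -0.63 to 0.20 with 1 array left out. Mcm3 in blood RT1B+ against pan T cells was -0.33 to 0.12 with 1 array left out. The cause was not tested. No paired analysis was possible because the replicate numbers were given in accession order and pair no samples across groups. With 2 arrays a group, changes near 2-fold in dim genes such as Ccne2 are poorly resolved.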

Other observations

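Regulators of the G1 phase, where a cell commits to divide, were listed separately and 29 were tested. In glomerular RT1B+ cells against pan T cells 10 rose and 3 fell, where 16.1% of all genes tested rose and 11.1% fell. In macrophage-labelled cells against pan T cells 4 rose and 7 fell, where 17.8% of all genes tested rose and 19.7% fell, so the share that rose was below that of all genes. In glomerular RT1B+ against macrophage-labelled cells 16 rose and 3 fell, where 20.4% of all genes tested rose and 16% fell. Ccnd2, the D-type cyclin of lymphocytes, was 14.3-fold higher in glomerular RT1B+ than in pan T cells (log2 difference 3.84, SE 0.28, limma adjusted p = 4.38e-06) and 7.56-fold higher than in macrophage-labelled cells. Ccnd1, another D-type cyclin, went the other way: it was 71.7-fold higher in macrophage-labelled than in pan T cells (log2 difference 6.16, SE 0.65, limma adjusted p = 2.08e-05), and in glomerular RT1B+ cells it fell by 5.27 on the log2 scale against the macrophage-labelled cells. In macrophage-labelled cells Cdkn2b, an inhibitor of the cyclin D kinases, rose at least 12-fold over pan T cells, while Cdkn1b, the inhibitor p27, fell by 2.17 and Myc fell by 2.28. Kidney markers summed to 5.25 to 5.44 in the macrophage-labelled arrays, and their part in these values was not tested.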
